A study of Mus musculus with 416 samples.

Results

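Of 46015 autosomal 50-kb bins that could be compared, 2417 (5.25%) were late or average in the replication order of control 4-cell blastomeres and early in that of control morula blastomeres. They covered 120.85 Mb and lay on all 19 autosomes. The members were chosen from the measured values themselves. Within a group, a bin's replicated share is the percentage of its measured cells in which it had been copied, and this share was centred on the group's mean over the 46015 bins. Members had a centred share of 0 or less in control 4-cell blastomeres and of +15 percentage points or more in control morula blastomeres. The bins that could be compared were those with at least 10 measured cells in each of the 6 groups, out of 49264 bins.

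The values came from single blastomeres of mouse embryos of genotype (C57BL/6J xCBA) x DBA/2J, cultured in KSOM medium after zygote injection with 20 µM siRNA at 17 to 18 h after hCG. Groups were siRif1 4-cell (51 cells) and siCont 4-cell (49 cells), siRif1 8-cell (50 cells) and siCont 8-cell (60 cells), and siRif1 morula (45 cells) and siCont morula (44 cells). The siRif1 embryos received an siRNA against Rif1 and the siCont embryos a control siRNA; the embryos of all 6 groups were injected. Neither embryos nor litters nor batches are named in the labels, so each group counted as 1 sample, and no p-value or standard error across cells is given. How far Rif1 was depleted in these cells cannot be read from DNA replication states and was not tested.

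DNA is copied in a set order within S phase, with gene-rich, active chromatin usually early and gene-poor, silent chromatin usually late. In mammalian embryos this order becomes more sharply defined over the first cleavage divisions, and individual regions can change place in it. RIF1 is a chromatin protein that recruits protein phosphatase 1 and opposes the DDK kinase, which activates the replicative helicase; it is known for holding late regions back and for keeping the timing programme in order.

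Each cell had a state, replicated or not, at 88.1 to 94.1% of the bins. The shortest run of 1 state inside a chromosome was 5 bins (250 kb) in every group, so neighbouring bins are not separate measurements. A typical member bin was measured in 51 siRif1 and 49 siCont 4-cell blastomeres, 50 siRif1 and 60 siCont 8-cell blastomeres, and 45 siRif1 and 44 siCont morula blastomeres (medians over members). An interval beside a count of cells is an exact (Clopper-Pearson) 95% interval for counting error alone. Counts of cells are not centred, so they also carry the differences between groups in mean replicated share over all bins. The spread of centred shares over all 46015 bins was narrower in siRif1 cells at 2 of the 3 stages. The SDs were 14.02 points in siRif1 and 13.7 in siCont at the 4-cell stage, 14.7 and 19.8 at the 8-cell stage, and 17.3 and 25.8 at the morula stage. A given distance from the mean was therefore a different place in the order of bins in each group, and percentile ranks are given beside the main values.

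The members formed 463 domains, a domain being a run of member bins whose starts lay at most 100 kb apart. The longest 4 each held a long gene with a RefSeq promoter entry (build GRCm38.p6). These promoters are printed because they mark known places in the domains that the results turn on. Each runs from 250 bases before to 50 bases after the gene's start, 300 bases, 5′ to 3′ on the gene's strand. Capitals mark CpG dinucleotides, the site of DNA methylation in mammals, searched as CG, which reads alike on both strands.
Camkmt, chr17:85090376-85090675, plus strand: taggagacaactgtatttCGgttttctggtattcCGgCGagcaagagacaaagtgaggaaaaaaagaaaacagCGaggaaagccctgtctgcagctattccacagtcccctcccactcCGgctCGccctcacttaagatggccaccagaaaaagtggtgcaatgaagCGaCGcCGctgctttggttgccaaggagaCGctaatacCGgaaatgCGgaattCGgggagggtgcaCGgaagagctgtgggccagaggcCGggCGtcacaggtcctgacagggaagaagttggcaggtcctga
Ror2, chr13:53286075-53286374, minus strand: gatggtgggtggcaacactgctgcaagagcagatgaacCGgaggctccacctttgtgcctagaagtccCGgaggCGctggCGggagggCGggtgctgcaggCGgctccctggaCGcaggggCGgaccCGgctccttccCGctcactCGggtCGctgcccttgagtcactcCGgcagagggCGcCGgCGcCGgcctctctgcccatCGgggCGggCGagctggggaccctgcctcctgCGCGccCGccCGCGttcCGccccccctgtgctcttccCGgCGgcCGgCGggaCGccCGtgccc
Uvrag, chr7:99141095-99141394, minus strand: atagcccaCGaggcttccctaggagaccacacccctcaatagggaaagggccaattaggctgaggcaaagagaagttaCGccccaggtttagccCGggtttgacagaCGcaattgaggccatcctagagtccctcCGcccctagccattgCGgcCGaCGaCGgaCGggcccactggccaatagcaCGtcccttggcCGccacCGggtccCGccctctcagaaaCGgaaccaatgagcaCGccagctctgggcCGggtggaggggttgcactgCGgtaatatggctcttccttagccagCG
Hdac4, chr1:92180292-92180591, minus strand: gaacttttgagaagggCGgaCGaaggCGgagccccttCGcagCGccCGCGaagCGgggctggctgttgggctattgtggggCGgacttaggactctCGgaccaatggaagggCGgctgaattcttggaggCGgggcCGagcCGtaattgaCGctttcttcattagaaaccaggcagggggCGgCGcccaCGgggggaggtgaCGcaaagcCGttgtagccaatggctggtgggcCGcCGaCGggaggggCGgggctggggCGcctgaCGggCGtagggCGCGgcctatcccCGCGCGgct

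The Camkmt promoter, of a gene for a calmodulin lysine methyltransferase, held 16 CpG, and 33.5% of the 27025 promoters in the RefSeq table held as many or more. Ror2, a receptor of Wnt5a, had 32 CpG in its promoter, as did Hdac4, a class IIa histone deacetylase; 9.24% of promoters held as many. Uvrag, which acts in autophagy and endosome traffic, had 19 (28.4% of promoters). The 4 promoters thus ranged from middling to high CpG content.

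The 50-kb bin with the Ror2 promoter was replicated in 29 of 51 siRif1 and 16 of 49 siCont 4-cell blastomeres, 24 of 50 siRif1 and 39 of 60 siCont 8-cell blastomeres, and 33 of 45 siRif1 and 31 of 44 siCont morula blastomeres. The Uvrag promoter's bin was replicated in 25 of 51 siRif1 and 16 of 49 siCont 4-cell blastomeres, 24 of 50 siRif1 and 37 of 59 siCont 8-cell blastomeres, and 28 of 43 siRif1 and 36 of 44 siCont morula blastomeres. At the morula stage the siRif1 share was the higher at Ror2 (centred 23.4 in siRif1 against 21.1 in siCont) and the lower at Uvrag (15.1 against 32.4). The Hdac4 promoter's bin stood at 28 of 51 siRif1 and 21 of 49 siCont cells, then 26 of 50 and 38 of 60, then 29 of 45 and 34 of 44. The Camkmt promoter's bin had 36 of 50 siRif1 and 22 of 49 siCont cells, then 29 of 50 and 41 of 60, then 34 of 45 and 35 of 44. At the 8-cell stage the replicated share was lower in siRif1 at all 4 promoters.

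The values that chose the members are given as a description. In siCont 4-cell blastomeres the members had a mean centred share of -6.19 points (lowest -30.2, highest -0.709), and in siCont morula blastomeres 22.2 points (lowest 15.7, highest 41.5). Of all bins, 50.8% were at 0 or less in siCont 4-cell and 36.9% at +15 points or more in siCont morula blastomeres. At the morula threshold, 84 members stood at 15.7 and 17 bins just outside it at 14.9. At the 4-cell threshold, 27 members stood at -0.709 and 844 bins just outside it at 0.396. Many members were close to a threshold: 1717 lay within 5 points of one or the other.

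How much of this contrast the choice itself made was read from cells that did not take part in it. Those cells belong to the same groups, each counted as 1 sample, so anything shared within a group stays in. With members chosen again on siCont cells of odd title number and read in cells of even number (2681 bins), the mean centred share of siCont cells was 0.878 points at the 4-cell stage, 8.24 at the 8-cell stage and 21 at the morula stage. With the roles of the cells exchanged (3345 bins), it was 0.364, 9.54 and 16.2 points. In the cells not used for choosing, the bins were thus near the genome mean, not below it, at the 4-cell stage: 50.5% were above 0 in the odd-chosen reading. The gain by the morula stage remained in the cells not used for choosing, at 20.1 and 15.8 points, against 28.4 points in the cells that chose the members.

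In control embryos the members lay part way between these ends at the 8-cell stage, which the rule did not use. Their mean centred share in siCont 8-cell blastomeres was 7.92 points (median 8.43, SD over bins 7.93, lowest -29.2, highest 29.1). Of the 2417 members, 2023 (83.7%) were above 0 in siCont 8-cell blastomeres, where 52.8% of all bins were. Only 445 (18.4%) had reached +15 points, fewer than the 27.7% of all bins. The members were therefore mostly above the genome mean at the 8-cell stage of control embryos and mostly below the early level. How many had crossed the mean cannot be read from this, because the rule set every member at 0 or less at the 4-cell stage. In the held-out readings, 50.5 and 53.4% of the chosen bins were above 0 in siCont 4-cell blastomeres. In siCont 8-cell blastomeres 79.2 and 85.1% were. The steps of the mean from 4-cell to 8-cell and from 8-cell to morula were 14.1 and 14.2 points. In the held-out readings these steps were 7.36 and 12.8 points, and 9.18 and 6.67 points, so which step was larger depended on the cells read.

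The move differed among members. By the siCont 8-cell value, 445 members were at +15 points or more, 1578 (65.3%) between 0 and +15, and 394 (16.3%) at 0 or less; 47.2% of all bins were at 0 or less in that group. Members already at +15 points in siCont 8-cell blastomeres averaged 14.2 points in siRif1 morula blastomeres, and 41.6% of them reached +15 points there. Of those between 0 and +15, 27.3% reached +15 points in siRif1 morula blastomeres (mean 10.7). Of those at 0 or less, 14.97% did (mean 6.09), and 25.1% were at 0 or less in siRif1 morula blastomeres too. Of all bins, 22.3% were at +15 points or more in siRif1 morula blastomeres and 48.2% at 0 or less. Members that were late to move in control embryos thus had the lower shares in siRif1 morula blastomeres. They also started lower: the siRif1 4-cell means of the 3 classes were 5.54, -0.799 and -11.3 points. The rise from the 4-cell to the morula stage in siRif1 cells was therefore widest, not smallest, in the late class.

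The siRif1 cells, which played no part in the choice, showed the gain mainly at the later step. The mean centred share of the members was -1.35 points in siRif1 and -6.19 in siCont 4-cell blastomeres, 0.390 in siRif1 and 7.92 in siCont 8-cell blastomeres, and 10.6 in siRif1 and 22.2 in siCont morula blastomeres. Between the 4-cell and 8-cell stages the siRif1 mean changed by 1.74 points, and between the 8-cell and morula stages by 10.2 points. Over both steps, 2037 members (84.3%) had a higher centred share at the morula than at the 4-cell stage in siRif1 cells, against 48.5% of all bins. A gain of 15 points or more was seen at 969 members (40.1%), against 11% of all bins. As uncentred shares, the members were replicated in 49.1, 43.4 and 60.5% of siRif1 cells at the 3 stages, against 40.4, 57.1 and 71.6% of siCont cells (means over bins).

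**Figure D1:**
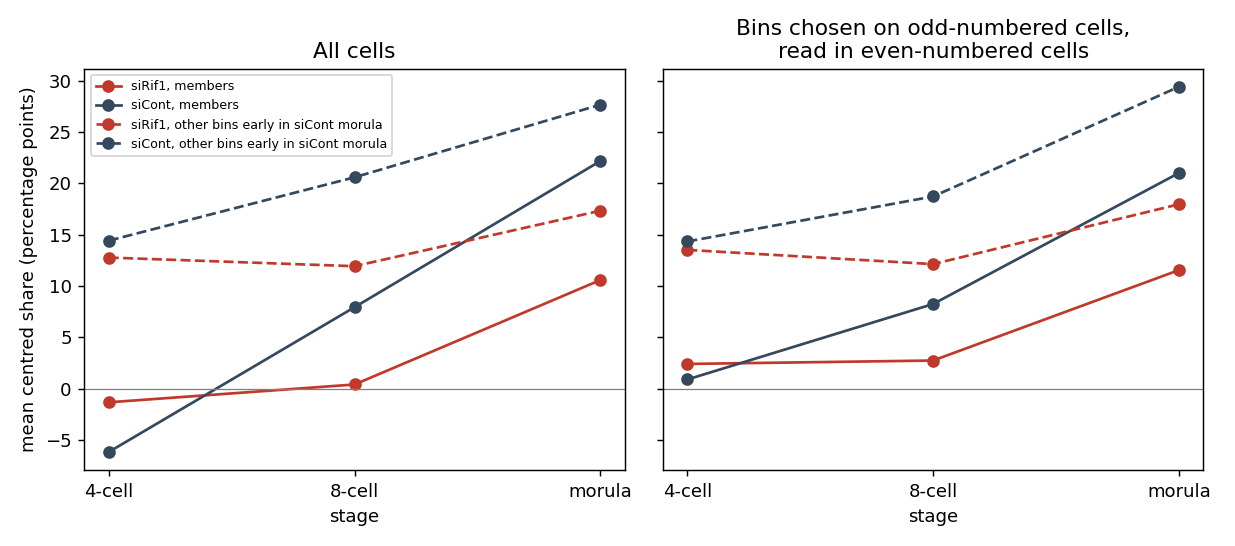
Mean centred replicated share in percentage points (y axis) at the 4-cell, 8-cell and morula stages (x axis) for siRif1 and siCont cells, in the members (solid) and other bins early in siCont morulae (dashed); the left panel uses all cells, the right one bins chosen on odd-numbered and read in even-numbered cells. In the left panel the members' siRif1 mean was 0.390 points at the 8-cell stage and 10.6 at the morula stage, below the siCont means of 7.92 and 22.2.

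In siRif1 8-cell blastomeres the members were spread about the genome mean. Of 2417, 1257 (52.01%) were above 0, close to the 49.8% of all bins, and 217 (8.98%) were at +15 points or more, against 15.9% of all bins. The shift, defined as siRif1 minus siCont centred share, averaged -7.53 points at the 8-cell stage (SD over bins 10.3). It was below 0 at 1836 members (76.0%; 47.9% of all bins) and at -15 points or less at 584 (24.2%; 12.3% of all bins). A shift of +15 points or more was found at 16 members (0.662%), against 11.1% of all bins.

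At the morula stage most members were above the genome mean in siRif1 cells, and most were below the early level of +15 points. Of 2417, 2132 (88.2%) had a centred share above 0 in siRif1 morula blastomeres, against 51.8% of all bins. The level that the rule asked of control morulae, +15 points, was reached by 675 (27.9%), against 22.3% of all bins. At the percentile rank that +15 points holds in siCont morula blastomeres (63.1), the count was 1471 (60.9%), against 35.2% of all bins. Another 285 (11.8%) were at 0 or less, against 48.2% of all bins. The shift averaged -11.6 points, but the rule used the siCont value, which makes it a description. It was below 0 at 2213 members (91.6%; 50.9% of all bins) and at -15 points or less at 872 (36.1%; 13.7% of all bins). In the held-out readings the morula shift was -9.46 and -6.66 points and the 8-cell shift -5.51 and -6.53 points. There +15 points was reached in siRif1 morula blastomeres at 42.1 and 32.5% of the chosen bins. The siCont morula blastomeres not used for choosing reached it at 62.4 and 53.1%, not at all of the bins as the rule required of the cells that chose. At the 4-cell stage the siRif1 share was higher by 4.84 points on average over the members, and this difference was 1.52 and -0.531 points in the held-out readings. It was +15 points or more at 342 members (14.1%; 4.97% of all bins) and below 0 at 697 (28.8%; 50.2% of all bins). In siRif1 4-cell blastomeres 1170 members (48.4%) were above 0, against 50.3% of all bins, and 125 (5.17%) were at +15 points or more, against 15.2%.

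**Figure D2:**
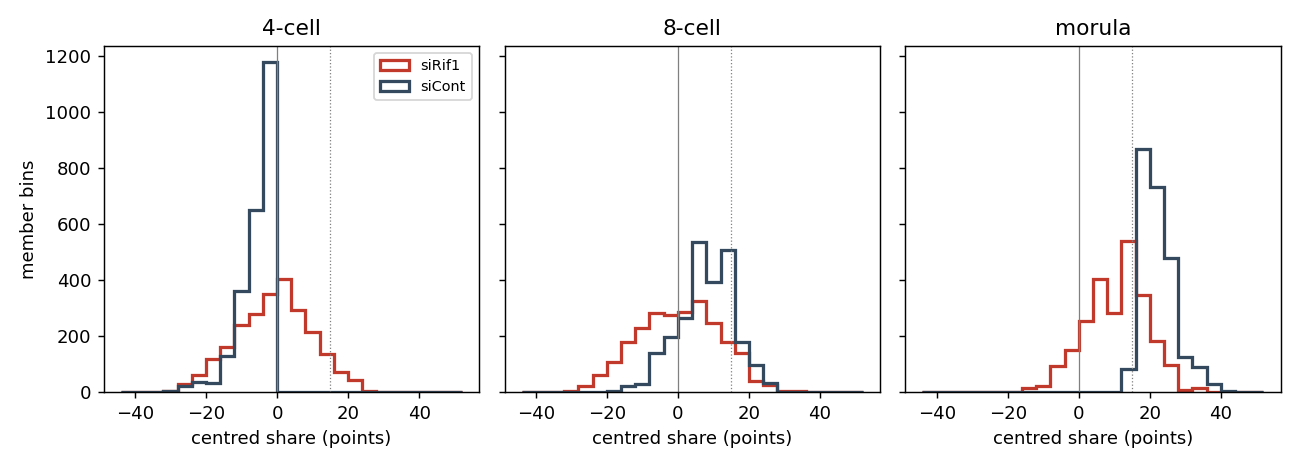
Number of member bins (y axis) by centred replicated share in percentage points (x axis) in siRif1 and siCont cells at each stage, with lines at 0 (solid) and +15 points (dotted). The siCont outline ends at 0 at the 4-cell stage, and its lowest value at the morula stage is 15.7, because the rule set those limits; in siRif1 morula blastomeres the same bins ran between -21.1 and 36.7 points.

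By place in the order of bins, the gap between siRif1 and siCont was smaller at the morula stage than at the 8-cell stage. The members' mean percentile rank was 47.3 in siRif1 and 35.5 in siCont at the 4-cell stage, 50.8 and 60.3 at the 8-cell stage, and 68.1 and 74.0 at the morula stage. The mean rank difference was -9.45 at the 8-cell stage and -5.91 at the morula stage. In the held-out readings, where other siCont cells of the same groups chose the bins, the morula ranks were 68.3 in siRif1 and 69.8 in siCont, and 65.8 and 68.2. The members thus held nearly the same place in the order of bins in siRif1 and siCont morula blastomeres, within a flatter profile in siRif1.

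Bins that were early in control morulae without being members differed from the members at the 4-cell stage by definition, and had shifts of like size. These 14577 bins, at +15 points or more in siCont morula but above 0 in siCont 4-cell blastomeres, had a mean of 17.3 points in siRif1 and 27.7 in siCont morula blastomeres. Their shift was -8.67 points at the 8-cell and -10.3 at the morula stage, next to -7.53 and -11.6 for the members. Both sets had to be at +15 points or more in siCont morula blastomeres, so the morula shift partly follows from the choice in both. In the held-out readings the shift of the other early bins was -6.59 and -11.1 points at the 8-cell stage. At the morula stage it was -11.5 and -7.32 points. The part of the narrower siRif1 spread in these shifts was not tested. Between the 4-cell and morula stages the siRif1 mean of the other early bins changed by 4.56 points, against 11.9 points for the members. The other early bins started at 12.8 points in siRif1 4-cell blastomeres and the members at -1.35. The members still ended lower in siRif1 morula blastomeres, at 10.6 points. The 20966 bins at 0 or less in siCont 4-cell blastomeres that were not members averaged -9.74 points in siRif1 8-cell and -13.3 points in siRif1 morula blastomeres, and 0.997% of them reached +15 points in siRif1 morula blastomeres. A lower centred siRif1 share at the 8-cell and morula stages was therefore shared with other early bins. The larger gain of the members within siRif1 cells went with their lower start, whose part in the gain was not tested.

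The members were also read cell by cell. The excess of a cell is the percent of its member bins that were replicated minus the percent of all its compared bins, which takes out the cell's overall replicated percent but not every dependence on progress through S phase. The siCont 4-cell and morula cells chose the members, so their excess is a description. In morula blastomeres the median excess was 10.1 points in siRif1 (lowest -5.47, highest 30.1) and 19.8 points in siCont (lowest 4.06, highest 39.8). It was above 0 in 37 of 45 siRif1 cells (82.2%, interval 67.9 to 92.0%) and in 44 of 44 siCont cells (interval 92.0 to 100%). The ranges overlapped widely, and the siRif1 cells reached lower.

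In 8-cell blastomeres the median excess was -0.511 points in siRif1 and 5.24 in siCont, above 0 in 24 of 50 siRif1 cells and 46 of 60 siCont cells. In 4-cell blastomeres it was -2.77 points in siRif1 and -8.15 in siCont, above 0 in 19 of 51 and 7 of 49 cells. Among morula blastomeres that had replicated 40 to 60% of their bins, the median excess was 12.4 points in 13 siRif1 cells and 23.8 in 24 siCont cells. Below 40% it was 13.7 points in 16 siRif1 cells and 18.6 in 10 siCont cells, and above 60% it was 4.40 in 16 siRif1 cells and 19.5 in 10 siCont cells. These class values share the same limit, since the siCont morula cells chose the bins.

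In morula cells not used for choosing, the median excess was 10.9 points in 23 siRif1 cells and 23.4 in 19 siCont cells for the odd-chosen bins. For the even-chosen bins it was 9.20 points in 22 siRif1 cells and 15.1 in 25 siCont cells. It was above 0 in 20 of 23 siRif1 and 19 of 19 siCont cells, and in 18 of 22 and 24 of 25. By class of replicated percent, the siRif1 median was the lower in all 3 classes of the odd-chosen reading and in 2 of 3 of the even-chosen one. The exception was the class under 40%, with 7.497 points in 10 siRif1 cells and 6.81 in 5 siCont cells.

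**Figure D3:**
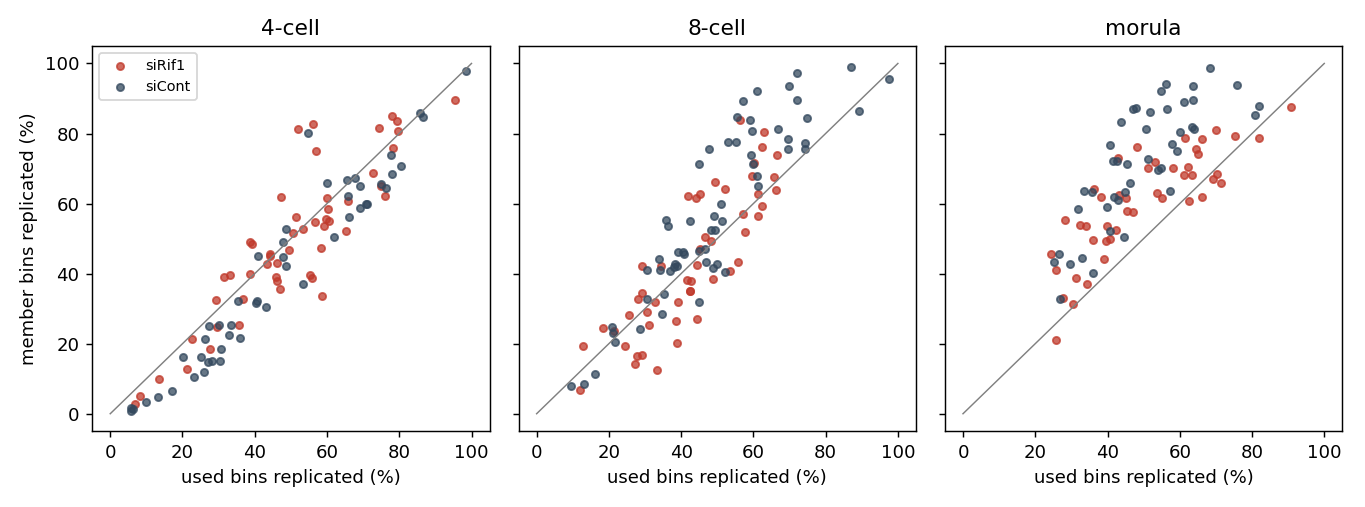
Percent of member bins replicated in each cell (y axis) against the percent of compared (used) bins the cell had replicated (x axis), 1 point per cell, siRif1 and siCont, at each stage; on the diagonal the excess is 0. At the morula stage all 44 siCont cells lie above the diagonal, and 37 of 45 siRif1 cells do.

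Domains varied in size, and most of the members lay in long ones. Of the 463 domains, 121 were single bins, the median was 3 bins, and 176 had at least 5 bins and held 1822 members (75.4%). Of those 176, 57 were flanked on both sides by bins above 0 in siCont 4-cell blastomeres, 94 on 1 side and 25 on neither. A member run ends wherever the 4-cell value passes 0, so flanks above 0 partly follow from the rule, and above 0 is not the early level of +15 points. In siRif1 morula blastomeres 158 of the 176 domains averaged above 0 and 42 at least +15 points. Of all single bins, 51.8% were above 0 and 22.3% at +15 points or more in that group, so the count at +15 points was near that share. In 8-cell blastomeres 97 were above 0 in siRif1 and 150 in siCont, and 11 reached +15 points in siRif1 against 22 in siCont. Of all single bins, 49.8% were above 0 in siRif1 and 52.8% in siCont, and 15.9 and 27.7% were at +15 points or more. A domain mean averages at least 5 bins, so these shares are not a like measure.

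The longest domain, chr17:85050001-88700000, had 73 member bins and 28 protein-coding genes. Its longest genes were Prkce, which encodes protein kinase C epsilon, Camkmt, and Srbd1, an RNA-binding domain gene. Most of the domain was replicated in 19 of 50 siRif1 and 15 of 49 siCont 4-cell blastomeres, 22 of 50 siRif1 and 36 of 60 siCont 8-cell blastomeres, and 30 of 45 siRif1 and 36 of 44 siCont morula blastomeres. The morula shares were 66.7% in siRif1 (interval 51.05 to 80%) and 81.8% in siCont (67.3 to 91.8%), and the intervals overlapped. Its mean centred share was 0.979 points in siRif1 and 8.81 in siCont at the 8-cell stage, and 13.8 and 26.4 at the morula stage. Along the domain the 8-cell values ran between -19.0 and 24.98 points in siRif1 and between -5.87 and 20.8 in siCont, so the difference was not even over its length. A neighbouring domain with Thada and Zfp36l2, chr17:84050001-84450000, was among the highest of all in siCont 8-cell blastomeres, at 21.6 points against 8.23 in siRif1. It was picked by rank on that siCont value, so the difference is a description.

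**Figure D4:**
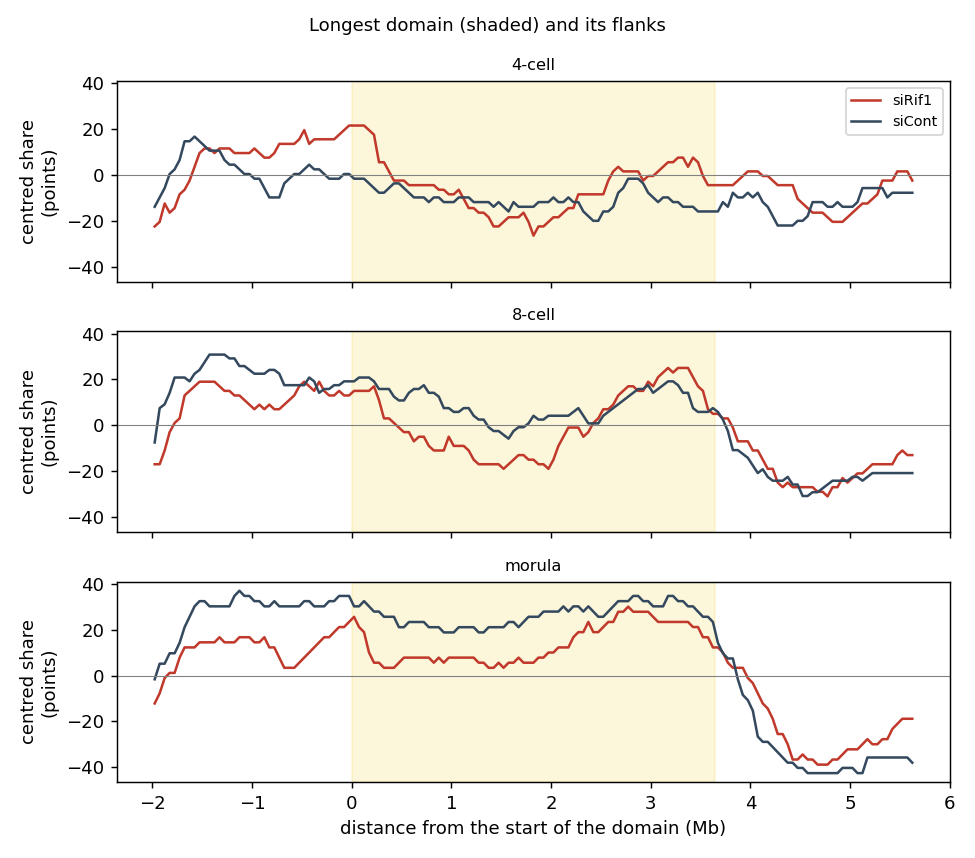
Centred replicated share in percentage points (y axis) across the longest domain and its surroundings against distance from the domain's start in Mb (x axis, domain shaded), for siRif1 and siCont cells at each stage. Within the domain the siRif1 mean is 13.8 points and the siCont mean 26.4 points at the morula stage.

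The next 3 domains in length had a like course from the 8-cell to the morula stage. The domain with Ror2, Shc3 and Sema4d (chr13:51050001-53350000, 45 member bins) averaged 1.20 points in siRif1 and 11.8 in siCont 8-cell blastomeres, and 17.3 and 31.4 in morula blastomeres. That with Uvrag, Acer3 and Gdpd5 (chr7:98100001-100000000, 38 member bins) averaged 2.72 and 15.96, then 8.65 and 25.8. That with Hdac4, Kif1a and Twist2 (chr1:91300001-93100000, 36 member bins) averaged -0.410 and 12.5, then 16.1 and 26.4. In these 3 domains the siRif1 mean was near 0 at the 8-cell stage and higher at the morula stage, below the siCont mean at both. At the 4-cell stage the siRif1 means were 5.84, -3.55 and -1.87 points, against -8.63, -9.54 and -5.73 in siCont. The Ror2 domain thus fell in siRif1 cells before it rose.

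The domain with Ulk4, Trak1 and Ano10 (chr9:120850001-122300000, 29 member bins) stayed below 0 at the 8-cell stage in both, at -13.9 points in siRif1 and -3.51 in siCont. By the morula stage it was at 16.2 and 23.7 points, replicated in 31 of 45 siRif1 and 32 of 44 siCont cells. It also holds Ctnnb1, which encodes beta-catenin, the Wnt effector and adherens junction protein. This domain moved late in both kinds of embryo.

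Among the other long domains, that with Ankrd55, Cdc20b and Slc38a9 (chr13:111900001-113400000) was replicated in 34 of 45 siRif1 and 32 of 44 siCont morula blastomeres. That with Tbx5, Rbm19 and Tbx3 (chr5:119050001-120450000; Tbx5 and Tbx3 are T-box transcription factors of limb and heart development) was replicated in 26 of 45 and 33 of 44. That with Taf4, Dido1 and Osbpl2 (chr2:179700001-181100000; Taf4 is a subunit of the general transcription factor TFIID) was replicated in 23 of 45 and 31 of 44. By these counts the first had a similar share in siRif1 and siCont morulae and the others a lower one in siRif1, with overlapping intervals. By mean centred share the first was also lower in siRif1 morulae, at 16.5 points against 22.3 in siCont.

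A few domains were as early in siRif1 as in siCont morula blastomeres. Among domains of at least 5 bins, the highest siRif1 morula means were at Tbca and Otp (chr13:94550001-94900000), at Arntl, Far1 and Btbd10 (chr7:112950001-113550000), at Grin2a (chr16:9200001-9850000) and at Zfhx3 (chr8:108300001-108900000). Arntl encodes the clock transcription factor BMAL1, Otp a hypothalamic homeobox factor and Grin2a an NMDA receptor subunit. Their means were 31.6 points in siRif1 and 23.01 in siCont at Tbca, 30.8 and 23.5 at Arntl, 27.6 and 24.2 at Grin2a, and 25.98 and 25.8 at Zfhx3. Most of the Tbca domain was replicated in 37 of 45 siRif1 morula blastomeres (82.2%, interval 67.9 to 92.0%) and 32 of 44 siCont (72.7%, 57.2 to 85.0%). All 4 were also above their siCont value at the 8-cell stage, by 5.15 to 9.51 points. At the 4-cell stage all 4 already had a siRif1 mean above 0, where the rule set siCont at 0 or less. The siRif1 4-cell mean was 5.56 points at Tbca, 9.97 at Arntl, 10.6 at Grin2a and higher still at Zfhx3. By these means none of the 4 met the rule in siRif1 cells. They are extremes picked by rank on the siRif1 morula value, and their nearness to siCont is a description.

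At the other end, 4 named domains were below 0 in siRif1 morula blastomeres. The domain with Efhb (chr17:53200001-53450000) averaged -9.98 points in siRif1 and 19.7 in siCont. That with Il16, Tmc3 and Stard5 (chr7:83450001-83700000; Il16 encodes a T cell chemoattractant) averaged -9.51 and 20.2, and was replicated in 16 of 43 siRif1 cells (37.2%, interval 22.98 to 53.3%) and 30 of 44 siCont cells (68.2%, 52.4 to 81.4%). That with T2, Ccr6 and Sft2d1 (chr17:8200001-8550000; Ccr6 is a chemokine receptor) averaged -8.39 and 18.5, and that with Ttc29, Rbmxl1 and Pou4f2 (chr8:77800001-78550000; Pou4f2 is a retinal ganglion cell transcription factor) -7.07 and 18.3. The siRif1 means of these 4 at the 4-cell stage were -8.86, -16.7, 0.685 and -0.0807 points, so the siRif1 value was lower at the morula than at the 4-cell stage in all but the Il16 domain. They are extremes picked by rank on the siRif1 morula value, and their distance from siCont is a description.

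The timing of the move in control embryos set other domains apart. The domains with the highest siCont 8-cell means held Apba1 and Ptar1 (chr19:23700001-24000000), Fcgbp and Zfp850 (chr7:27950001-28200000), Thada and Zfp36l2, and Lama3, Ttc39c and Ankrd29 (chr18:12100001-12700000; Lama3 is a laminin chain of epithelial basement membranes). Their siCont 8-cell means ran from 21.5 to 24.5 points, where the siRif1 means ran from 1.38 to 12.1 points. These domains, like the lowest ones below, were picked by rank on the siCont 8-cell value. Their distance from siRif1 at that stage partly follows from the choice. The lowest siCont 8-cell means, besides the Taf4 domain, were at Runx1 (chr16:92600001-92950000; a blood stem cell transcription factor), at Cacng2 and Csf2rb (chr15:78050001-78350000; a calcium channel subunit and a cytokine receptor), and at Ext2, Cd82 and Alx4 (chr2:93350001-93850000). At Runx1 23 of 60 siCont 8-cell blastomeres had replicated most of the domain, then 29 of 42 siCont morula blastomeres; in siRif1 the counts were 21 of 50 and 26 of 45. The Runx1 domain was thus below the genome mean at the 8-cell stage of control embryos, at -9.68 points, and had a mean of 6.85 points in siRif1 and 21.02 in siCont morula blastomeres.

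Among the 176 domains of at least 5 bins, the largest 8-cell difference, chosen after the values were seen, was in a domain with Lmf1, Cacna1h and Tekt4 (chr17:25250001-25750000; Cacna1h encodes a T-type calcium channel). It averaged -21.0 points in siRif1 and 18.2 in siCont 8-cell blastomeres, a shift of -39.2 points, and 4.84 and 29.9 points in morula blastomeres. Of the 176 domains, 135 had a negative mean shift at the 8-cell stage and 167 at the morula stage, where 47.9 and 50.9% of all bins were negative. A mean shift of -15 points or less was found in 36 and 57 of them, where 12.3 and 13.7% of all bins were that low. These percentages are of single bins and the counts are of domain means, so they are not a like measure. The morula counts rest on siCont values that the rule set at +15 points or more.

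**Figure D5:**
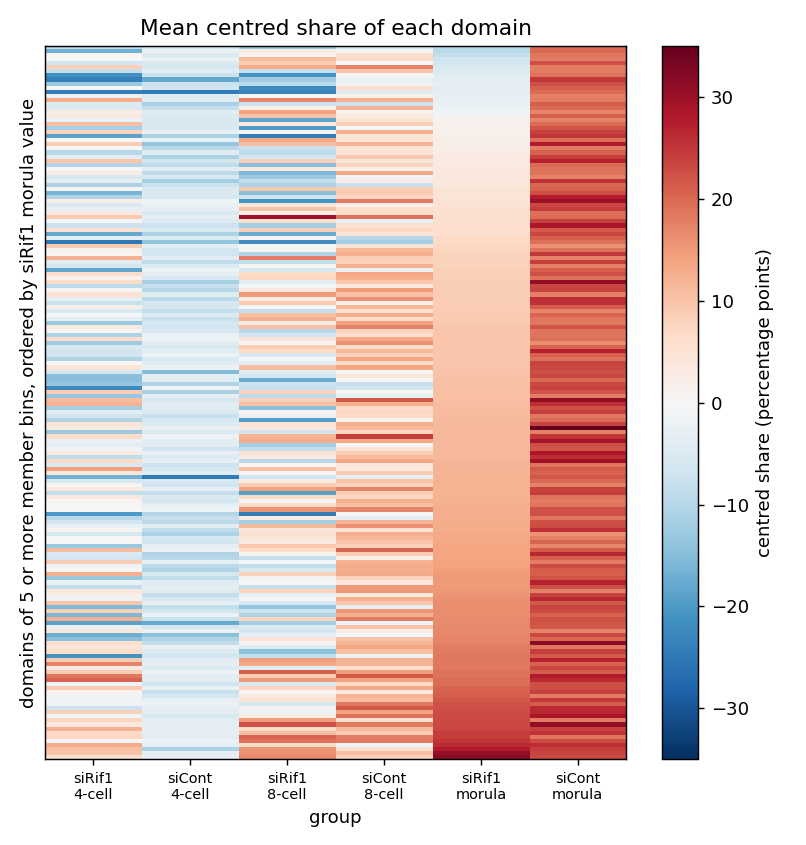
Mean centred replicated share in percentage points (colour) of the 176 domains of 5 or more member bins (1 line each, ordered by siRif1 morula value) in the 6 groups (columns, siRif1 left of siCont at each stage). The siRif1 morula column runs between -9.98 points at Efhb and 31.6 at Tbca, while the siCont morula column is above +15 points throughout, as the rule required.

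Genes in the member bins numbered 1347, 11.1 per Mb, against 8.44 per Mb over all compared bins. Counts of gene lists below are set against the 6.94% of all 19410 placed genes that lay in members, and genes of a cluster share bins. Keratins, the intermediate filament proteins of epithelia, stood out by count: 26 of 53 lay in members, in 12 bins of 2 clusters. On chromosome 15, 19 of 26 keratin genes lay in 9 member bins (chr15:101350001-101850000). Most of this stretch was replicated in 15 of 51 siRif1 and 14 of 49 siCont 4-cell blastomeres, 17 of 50 and 26 of 60 8-cell blastomeres, and 30 of 45 and 30 of 44 morula blastomeres. By these counts the type II keratin cluster, with Krt5, Krt1 and Krt7, reached a similar share in siRif1 (66.7%, interval 51.05 to 80%) and siCont morulae (68.2%, 52.4 to 81.4%). The mean centred share of the stretch was 15.5 points in siRif1 and 21.1 in siCont morulae.

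On chromosome 11, 7 of 27 keratin genes lay in 3 member bins (chr11:100050001-100200000), with Krt19, Krt15 and Krt9 among them. These type I keratins were replicated in 11 of 49 siRif1 and 34 of 60 siCont 8-cell blastomeres, and in 27 of 45 and 31 of 44 morula blastomeres. In 4-cell blastomeres the counts were 22 of 50 in siRif1 and 17 of 49 in siCont. The 8-cell share was 22.4% in siRif1 (interval 11.8 to 36.6%) and 56.7% in siCont (43.2 to 69.4%). These intervals cover counting error in 1 sample per group and do not test siRif1 against siCont.

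The major histocompatibility complex genes in members, 8 of 35, were all of the class II region, which serves antigen presentation to helper T cells: H2-Aa, H2-Ab1, H2-Eb1, H2-Eb2, H2-Ob, H2-DMa, H2-DMb1 and H2-DMb2. They lay in 5 bins (chr17:34100001-34350000). Most of the stretch was replicated in 16 of 50 siRif1 and 20 of 49 siCont 4-cell blastomeres, 12 of 50 and 32 of 60 8-cell blastomeres, and 21 of 45 and 31 of 44 morula blastomeres. Its mean centred share was -1.98 points in siRif1 and 20.6 in siCont morula blastomeres, so the siRif1 cells had not passed the genome mean there. Of the clustered protocadherins, neuronal adhesion proteins, 21 of 57 lay in members, all of the gamma cluster and in 2 bins of chromosome 18. The gamma genes of the bin with Pcdhga12 and Pcdhgc5 stood at 18.9 points in siRif1 and 18.1 in siCont morula blastomeres.

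Developmental genes were found in members in small numbers. Of genes of compaction, polarity and the Hippo pathway, which divides outer from inner cells of the morula, 3 of 25 were in members: Yap1 and Wwtr1, the co-activators that Hippo signalling restrains, and Ctnnb1. The Yap1 bin was replicated in 25 of 51 siRif1 and 20 of 49 siCont 4-cell blastomeres, 27 of 50 and 39 of 60 8-cell blastomeres, and 28 of 45 and 31 of 44 morula blastomeres. The Wwtr1 bin stood at 17.0 points in siRif1 and 19.1 in siCont 8-cell, and at 14.5 and 23.3 in morula blastomeres. Both had thus gained by the 8-cell stage in siRif1 as in siCont embryos.

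Of 20 trophectoderm genes only Tfap2c, a transcription factor of that lineage, was in a member bin. It was replicated in 13 of 51 siRif1 and 19 of 49 siCont 4-cell blastomeres, 17 of 50 and 30 of 60 8-cell blastomeres, and 31 of 45 and 32 of 44 morula blastomeres. Its centred share was -25.0 points in siRif1 and -7.77 in siCont at the 4-cell stage, and 18.9 and 23.3 at the morula stage. The Tfap2c bin thus had a wide gain in siRif1 cells. Of 26 pluripotency genes, 3 were in members: Tbx3, at 16.7 points in siRif1 and 27.9 in siCont morula blastomeres, Utf1 at 3.51 and 18.8, and Fbxo15 at 12.2 and 20.4. Of 14 primitive endoderm genes, 2 were: Pdgfra, the platelet-derived growth factor receptor alpha, at 23.4 and 16.5, and Sox7 at 14.5 and 23.3.

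Of 37 licensing and fork genes, 3 were in members. Mcm2, a subunit of the replicative helicase, stood at 12.98 points in siRif1 and 20.8 in siCont 8-cell blastomeres, and at 14.5 and 25.03 in morula blastomeres. Cdt1, which loads that helicase, was replicated in 13 of 50 siRif1 and 37 of 60 siCont 8-cell blastomeres, and in 30 of 45 and 33 of 44 morula blastomeres. Gins2, a subunit of the helicase's GINS complex, stood at -21.0 and 5.80 points, then 3.36 and 16.5. At Cdt1 and Gins2 the 8-cell share was low in siRif1 and above the genome mean in siCont.

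Yy1, a zinc finger transcription factor needed in early embryos, was replicated in 23 of 50 siRif1 and 41 of 60 siCont 8-cell blastomeres, and in 22 of 45 and 31 of 44 morula blastomeres. Its list, 2-cell and genome activation genes, had under 80% of its genes measured; 2 of 13 placed genes were in members, the other being Ddit4l, at 1.13 points in siRif1 and 21.1 in siCont morula blastomeres. Of 40 long neuronal and fragile site genes, only Wwox was in a member, at 10.02 and 21.1 points. Olfactory receptor genes were rarer in members than genes at large, with 26 of 1019.

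Zinc finger genes were near the overall share with 31 of 373, as were solute carriers with 18 of 323 and ribosomal protein genes with 5 of 80. Cytochrome P450 genes, which oxidise drugs and steroids, had 9 of 71. Of the ribosomal protein genes, Rps3 stood at 0.979 points in siRif1 and 20.3 in siCont 8-cell blastomeres, and Rps14 at -5.02 and 15.8. Of the zinc finger genes, Zfp780b and Zfp850 shared a bin at -1.02 and 23.7. These genes were picked for the highest siCont 8-cell shares in their lists, so the differences partly follow from the choice. No member bin held a gene of the lists for Rif1, protein phosphatase 1 and DDK (8 genes), DNA and histone methylation (32), imprinting (27), vomeronasal receptors (185), Hox clusters (39), replication-dependent histones (63) or defensins (43).

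The member bins held 68 of the 904 microRNA hairpins placed in compared bins, 0.563 per Mb against 0.393 per Mb. A let-7 cluster, chosen after its position was seen, lay in the member bin chr13:48500001-48550000. The let-7 family is known for restraining proliferation and promoting differentiation. Its 3 mature microRNAs (RefSeq, GRCm38.p6) are printed with the seed, bases 2 to 8, in capitals, to show that the bin carries 3 copies of 1 targeting sequence.
mmu-let-7a-5p, chr13:48538239-48538260, minus strand: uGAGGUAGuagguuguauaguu
mmu-let-7f-5p, chr13:48537889-48537910, minus strand: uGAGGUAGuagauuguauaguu
mmu-let-7d-5p, chr13:48536078-48536099, minus strand: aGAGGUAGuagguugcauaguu

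This let-7 bin was replicated in 29 of 51 siRif1 and 22 of 49 siCont 4-cell blastomeres, 34 of 50 and 40 of 60 8-cell blastomeres, and 32 of 45 and 31 of 44 morula blastomeres. The seed GAGGUAG was the same in all 3. The siRif1 cells had moved here by the 8-cell stage, at a centred share of 24.98 points against 17.5 in siCont, and the morula values were 21.1 in both.

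Gene content was also read against whether a member was early in siRif1 morulae. The 675 members at +15 points or more in siRif1 morula blastomeres had 9.78 genes per Mb, the 1457 between 0 and +15 had 11.4, and the 285 at 0 or less had 13.3. Over all members, 40.1% of bins held a gene midpoint and 70.5% overlapped a gene, against 29.7 and 58.2% of all compared bins. The other early bins of control morulae had 15.3 genes per Mb, and the bins late or average at the 4-cell stage that were not members 4.57. The members were thus intermediate in gene density.

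The members were unevenly spread over chromosomes. Their share of compared bins ran from 1.68% on chromosome 4 to 10.3% on chromosome 17, with 9.78% on chromosome 13, 9.23% on chromosome 5 and 8.58% on chromosome 7. Of the members, 8.56% lay within 5 Mb of the distal chromosome end, against 3.74% of all compared bins. The mean gain of the members from 4-cell to morula in siRif1 was positive on all 19 autosomes, from 4.75 to 16.3 points. The 8-cell shift was negative on 17 of 19 autosomes (lowest -18.0, highest 2.31). On chromosome 13, 51.4% of members reached +15 points in siRif1 morula blastomeres and 2.78% were at 0 or less. On chromosomes 17, 12, 6 and 3, 24.6 to 26.1% of members were at 0 or less, and 28.3, 14.1, 9.30 and 13.1% reached +15 points. Over all members 11.8% were at 0 or less and 27.9% at +15 points or more in that group. Over all compared bins the shares were 48.2 and 22.3%, and those of single chromosomes are not given.

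When the same rule was applied to siRif1 cells, 0 or less at the 4-cell and +15 or more at the morula stage, it found 1008 bins (2.19% of all). Of these, 242 were members, which is 10.01% of the members and 24.01% of the siRif1 bins. Among runs that met both rules, 17 bins at chr8:124700001-125600000 held Disc1, Sipa1l2 and Egln1, the oxygen sensor that marks HIF for degradation. They averaged -15.9 points in siRif1 and -11.7 in siCont 4-cell blastomeres, 4.16 and 9.33 in 8-cell blastomeres, and 18.0 and 20.1 in morula blastomeres. A run with Aurka, a mitotic kinase, and Tfap2c (chr2:172350001-172800000) averaged -20.6 and -5.95, then -7.69 and -0.868, then 19.4 and 21.8. Most members did not meet the rule in siRif1 cells. At 0 or less in siRif1 4-cell blastomeres were 1247 (51.6%), near the 49.7% of all bins, and 242 of those reached +15 points in siRif1 morula blastomeres. Held-out siCont cells fell short of the rule at many chosen bins too. In them 50.5 and 53.4% were above 0 at the 4-cell stage, and 62.4 and 53.1% reached +15 points at the morula stage. How much of the low overlap is particular to siRif1 cells was not tested.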

How the data were processed

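The tables deposited by the authors hold, per the file headers, 1 column per cell and 1 line per 50-kb bin of chromosomes 1 to 19, with a binary state of 0, 1 or NA (not a count or signal). Per the submitters' processing notes, the tools were R 4.2.3, bedtools, Bowtie2 2.5.1, Picard and SAMtools, with GRCm38; their roles, how reads became states, the choice of cells and read depth are not given in the sources used here. Of 416 labelled cells, 299 had a column and all were used; 1 was read as replicated because bins holding a gene midpoint had the higher mean share of 1 in all 6 groups.

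Shares, centring, percentile ranks, domains and cell counts were computed in Python 3.11.15 with numpy 2.4.6, pandas 2.3.3, scipy 1.17.1 and matplotlib 3.10.9, and the code was tested on simulated data. A domain counted as replicated in a cell where most of its measured bins were 1. Genes were placed by midpoint with a RefSeq table (GRCm38.p6; 19410 of 20665 autosomal protein-coding genes fell in compared bins). Named domains are the 8 longest and, among those of at least 5 bins, the 4 highest and 4 lowest in siRif1 morula and in siCont 8-cell, each with up to 3 of its longest genes; listed genes are named where their midpoint bin is a member, from the longer lists up to 2 with the highest siCont 8-cell share; the other keratin and class II genes were named after their values were seen. Members, lists and tests were chosen with earlier results of these data known. The comparison with other bins early in control morulae, the second odd/even reading, the held-out values per cell, the setting without chromosomes 5, 7, 13 and 17, the let-7 cluster and the runs under both rules were chosen after seeing the data. CpG content was not compared over members, because 77.4% of their genes had a promoter entry.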

Additional observations from a re-analysis of the deposited data

Results flagged for a closer look

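The difference between siRif1 and siCont cells over the members had opposite signs at the first and last stage. The mean centred share was higher in siRif1 by 4.84 points at the 4-cell stage, and the difference was -11.6 points at the morula stage. The rule fixed the siCont values at both stages, and with 1 sample per group the difference between stages was not tested. In the readings by cells not used for choosing, it was 1.52 and -0.531 points at the 4-cell stage and -9.46 and -6.66 points at the morula stage.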

How the results depend on the processing

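The number of members depended on the settings: 2417 as reported, 1463 at a morula threshold of +20 points, 1451 with centring on the group median and 1548 without chromosomes 5, 7, 13 and 17, where members make up the largest shares of the compared bins. At the rank that +15 points holds in siCont morula blastomeres (percentile 63.1), 1471 members were that early in siRif1 morula blastomeres, which is 60.9% of members and 35.2% of all compared bins, against 27.9% of members at +15 points. Across the settings tried, the members' mean ran from 6.43 to 9.54 points in siCont 8-cell and from 8.64 to 12.3 points in siRif1 morula blastomeres. The shift ran from -8.26 to -5.51 points at the 8-cell stage, from -13.4 to -6.66 at the morula stage and from -0.531 to 5.98 at the 4-cell stage, where 1 held-out reading changed its sign. The gain from 4-cell to morula ran from 9.14 to 13.1 points in siRif1. No paired analysis was possible because cells share only a title number across groups and no result comes from a test. With 44 to 60 cells per group, a single bin's share has a wide interval. Read depth is unknown, the states are smoothed, and embryo, litter and batch cannot be told apart from group.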

Other observations

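Bins that met the rule in siRif1 cells and not in siCont cells numbered 766 and held 632 genes, 16.5 per Mb. They averaged -4.72 points in siRif1 and 5.39 in siCont 4-cell blastomeres, 1.62 and 11.8 in 8-cell blastomeres, and 19.9 and 20.6 in morula blastomeres. Failing the rule in siCont removes bins at 0 or less in siCont 4-cell blastomeres that were early in siCont morulae, so the siCont means partly follow from the choice.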
